A study of Mus musculus with 67 samples.

Results

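The loci of the nuclear factor I (NFI) genes Nfia, Nfib, Nfic and Nfix were examined as the set of accessible chromatin elements whose annotated gene name was 1 of these 4. Of 133549 annotated elements, 62 carried such a name, and 49 of them had values in the table of 111638 elements: 25 at Nfia, 12 at Nfib, 4 at Nfic and 8 at Nfix. The other 13 were not analysed here. Only 19 of the 49 (10 at Nfia, 3 at Nfib, 1 at Nfic and 5 at Nfix) had a mean above 100 normalized counts over all samples, a level that the study required of the elements it selected, and 30 lay below it. Unless stated otherwise, tests were run here on elements above this level. Of the 49, 40 were annotated to introns, 2 to promoters, 2 to exons and 5 to intergenic sequence. Each element is named here by its gene and the distance of its centre from the annotated transcript start in kb, with + for downstream. The elements upstream of the Nfia start also lie in an intron, that of a longer annotated transcript.

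Accessibility was measured by CaTS-ATAC, in which fixed cells are cut with Tn5 transposase, stained for transcription factors inside the cell and sorted by them, so that each library holds 1 progenitor type. The 67 libraries came from mouse HM1 embryonic stem cells in N2B27 medium, given bFGF and LGK until day 2 and then bFGF, CHIR99021, SB-431542 and DMH1 until day 3. Neuromesodermal progenitors (NMPs) were taken at day 3 (3 libraries). All neural progenitors (NPs) then received RA (retinoic acid) and, except at 0 nM, the Smoothened agonist SAG, which stands in for graded Sonic hedgehog. At days 4, 5 and 6, respectively, the dorsal p0-1 type (0 or 10 nM SAG) gave 6, 6 and 5 libraries, p2 (10 or 100 nM) 6, 6 and 6, pMN (100 or 500 nM) 6, 5 and 4, and the ventral p3 type (100 or 500 nM) 5, 5 and 4. The libraries were labelled by replicate number, and the study describes its replicates as independent differentiations. All came from the 1 line. The pMN and p3 libraries of day 6 come from replicates 2 and 3 alone. NMPs had seen neither RA nor SAG, so that age and exposure cannot be told apart in any comparison with them, and a type is confounded in part with its SAG concentration.

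NFI proteins are transcription factors that bind as dimers to a palindrome whose arms read TTGGC. In the developing spinal cord NFIA and NFIB appear in ventricular zone progenitors after neurogenesis has begun. They are best known there for promoting the switch from making neurons to making glia and for marking late-born neurons. NFIX acts in neural stem cells and in the switch from embryonic to fetal muscle, and NFIC is known for its part in tooth root formation. Accessible elements in the introns of such genes are candidate enhancers, and the values given here are accessibility, not expression.

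The central 300 bases of 6 elements on which the results turn are shown, in lower case except for matches to 4 short motifs on either strand: the NFI arm TTGGC, a forkhead site TGTTTAC, a homeodomain site TAATTA and a SOX site ACAATG. Their coordinates are those of mm10, and the bases were read from the same build, GRCm38. The first 4 are the Nfia and Nfib elements that gained most accessibility, the fifth is the Nfix element that lost most, and the last is a weak Nfib element that was highest in p3.
Nfia+62.6kb, chr4:97840079-97840378, + strand: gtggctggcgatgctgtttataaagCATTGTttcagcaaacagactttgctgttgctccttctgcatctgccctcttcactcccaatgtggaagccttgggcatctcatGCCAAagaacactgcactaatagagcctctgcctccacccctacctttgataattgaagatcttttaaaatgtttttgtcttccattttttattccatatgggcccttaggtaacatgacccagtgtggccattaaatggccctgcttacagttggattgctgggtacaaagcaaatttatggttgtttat
Nfia+140.2kb, chr4:97917638-97917937, + strand: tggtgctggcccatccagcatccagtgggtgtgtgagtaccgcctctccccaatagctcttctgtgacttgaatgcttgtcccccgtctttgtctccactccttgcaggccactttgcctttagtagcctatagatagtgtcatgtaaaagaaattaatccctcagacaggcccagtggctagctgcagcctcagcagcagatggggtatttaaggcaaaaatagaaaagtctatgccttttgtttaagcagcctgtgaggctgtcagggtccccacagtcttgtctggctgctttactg
Nfia+28.9kb, chr4:97806345-97806644, + strand: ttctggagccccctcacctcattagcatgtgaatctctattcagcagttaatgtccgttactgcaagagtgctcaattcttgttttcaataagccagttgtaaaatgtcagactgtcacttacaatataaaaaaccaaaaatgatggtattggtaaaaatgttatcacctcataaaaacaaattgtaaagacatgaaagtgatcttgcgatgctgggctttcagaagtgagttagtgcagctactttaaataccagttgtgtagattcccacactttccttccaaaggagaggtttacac
Nfib+15.7kb, chr4:82489928-82490227, + strand: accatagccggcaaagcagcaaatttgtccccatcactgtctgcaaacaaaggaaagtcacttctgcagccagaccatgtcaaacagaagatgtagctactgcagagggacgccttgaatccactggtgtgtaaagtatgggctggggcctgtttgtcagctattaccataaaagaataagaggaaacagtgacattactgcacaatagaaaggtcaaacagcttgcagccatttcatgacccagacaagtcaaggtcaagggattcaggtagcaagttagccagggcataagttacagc
Nfix+15.1kb, chr8:84785082-84785381, + strand: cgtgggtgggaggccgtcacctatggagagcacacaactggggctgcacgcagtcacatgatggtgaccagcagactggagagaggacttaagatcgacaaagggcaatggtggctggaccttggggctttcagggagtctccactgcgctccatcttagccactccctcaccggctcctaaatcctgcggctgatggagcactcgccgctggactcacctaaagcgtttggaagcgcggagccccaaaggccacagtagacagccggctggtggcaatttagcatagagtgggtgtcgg
Nfib+177.7kb, chr4:82327919-82328218, + strand: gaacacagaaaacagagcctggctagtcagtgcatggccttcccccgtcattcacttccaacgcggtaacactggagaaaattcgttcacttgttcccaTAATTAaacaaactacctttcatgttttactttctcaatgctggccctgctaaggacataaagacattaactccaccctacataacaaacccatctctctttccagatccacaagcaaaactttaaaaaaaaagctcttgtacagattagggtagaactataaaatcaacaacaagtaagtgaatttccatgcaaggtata

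The Nfia+62.6kb window held 1 NFI arm and 1 SOX site, both on the opposite strand, and the Nfib+177.7kb window held 1 homeodomain site. The other 4 windows held none of these letters. Over the 49 elements, 17 central windows (34.7%) held an NFI arm, against 43.2% of all 111638 elements, and none held the full palindrome of both arms, which occurred in 0.0287% of all windows. A SOX site was present in 12.2% of the 49 and 21.1% of all, a homeodomain site in 10.2% and 7.85%, and a forkhead site in 2.04% and 4.96%. These shares are descriptions of letters in a window.

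The group with the highest mean was counted for each element. The NMPs were the highest of the 13 type-by-day groups for all 4 Nfic elements and for 5 of the 8 at Nfix, but for only 2 of the 25 at Nfia and 3 of the 12 at Nfib. The pMN group of day 6 was the highest for 9 Nfia elements and p3 of day 6 for 5. Over the 49 elements the NMPs were highest at 28.6%, pMN of day 6 at 20.4% and p3 of day 6 at 16.3%, beside 33.5%, 10.2% and 14.2% of all 111638 elements. The p3 group of day 4 was highest at 7 of the 49 (14.3%), beside 4.36% of all. Differences between the loci in these counts were not tested. The spread between the highest and lowest group mean was widest at Nfia, at 6.33 on the variance-stabilized log2 scale (VST) for its most variable element, and had a median of 2.17 at Nfia, 2.08 at Nfib, 2.29 at Nfic and 1.00 at Nfix, beside 2.11 over all elements.

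**Figure D1:**
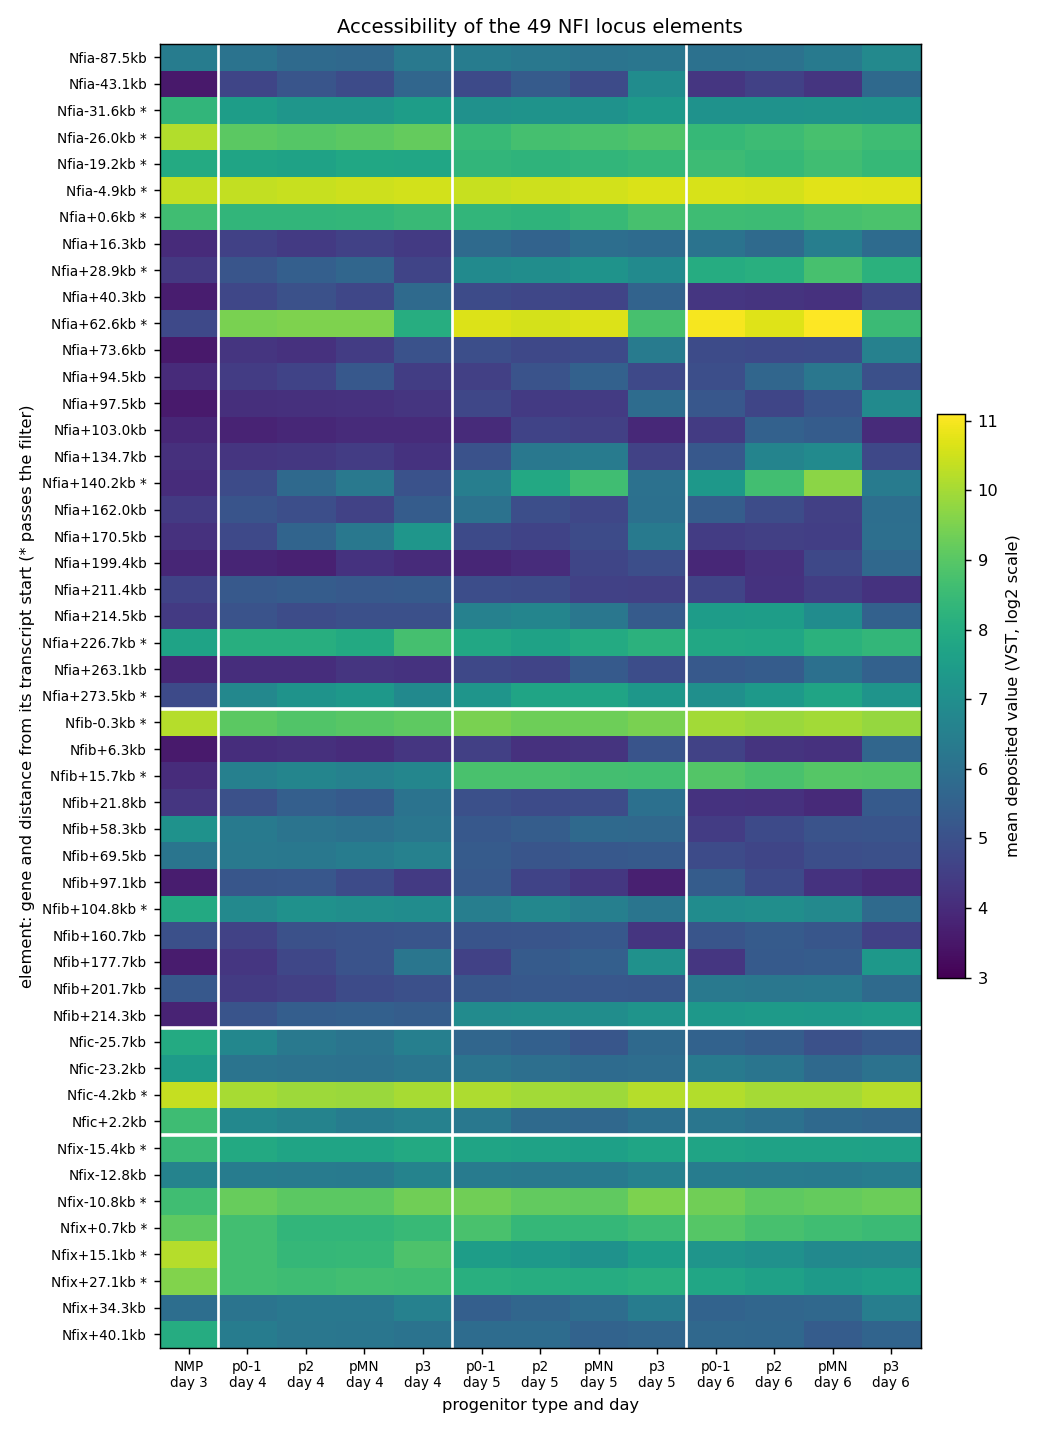
Mean deposited value (VST, a log2 scale, shown by colour) of each of the 49 NFI locus elements (rows, in order along each gene, asterisks on the 19 that passed the filter) in the 13 groups (columns, by day and type). Nfia+62.6kb changes from near the bottom of the scale in NMPs to its top by day 6 in p0-1, p2 and pMN and stays lower in p3, whereas Nfix+15.1kb darkens from left to right in every type.

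Between NMPs and NPs of day 4, 4 elements rose in at least 1 type, where 27.6% of the 31744 elements tested did. The rule was an adjusted p below 0.01 and more than 4-fold in mean normalized counts. These are the study's thresholds, applied here to limma tests where the study ran DESeq2. The 4 that rose were Nfia+62.6kb, Nfia+140.2kb, Nfia+273.5kb and Nfib+15.7kb. With limma and with voom none fell, where limma called 2.65% of those tested. Of the 19, 17 had an unadjusted limma p below 0.05 in either direction. Such unadjusted counts, here and below, are given without the share of all elements and do not compare the NFI loci with the rest. The 4 comparisons share the same NMP samples, and over all elements tested the VST difference had a median between -0.27 and -0.18.

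Nfia+62.6kb (chr4:97839431-97841026, intron 2 of 10) had the widest difference of them. The NMP libraries had 23.0, 9.44 and 17.2 normalized counts there, from 42 reads in all. At day 4 the lowest, median and highest sample were 301, 794 and 1070 in p0-1, 476, 807 and 992 in p2, and 533, 754 and 923 in pMN. The p3 samples had 226, 197, 326, 234 and 290. Every NP sample of day 4 thus lay above every NMP sample, and the p3 samples overlapped only the lowest p0-1 sample. The rise was 43.1-fold in p0-1 (VST difference 4.70, SE 0.338, adjusted p = 5.38e-08), 43.1-fold in p2, 41.8-fold in pMN (4.75, SE 0.189, adjusted p = 2.10e-12) and 14.6-fold in p3 (3.27, SE 0.220, adjusted p = 7.46e-10).

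The same element had most of its day 6 level by day 5. Its day 4 mean was 37.8% of the day 6 mean in p0-1, 45.8% in p2, 33.4% in pMN and 67.4% in p3, and its day 5 mean was 81.6%, 91.1%, 73.7% and 113%. The day 6 samples of p0-1 had 1871, 2064, 1934, 1954 and 2184 counts, the p2 samples ran from 1431 over a median of 1611 to 2029, and the pMN samples had 2058, 2495, 1855 and 2372. The p3 samples had 509.5 and 500.5 at 100 nM SAG and 247.2 and 254.4 at 500 nM. From NMPs to day 6 the rise was 114-fold in p0-1, 94.0-fold in p2, 125-fold in pMN and 21.6-fold in p3. Per kb of element it reached 1375 normalized counts in pMN at day 6, above the 907 of Nfia-4.9kb, the most accessible element near the Nfia start.

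Nfia+273.5kb (chr4:98050133-98052192, intron 7 of 10) rose early and changed less after day 4. It went from 21.82, 10.79 and 18.31 normalized counts in the NMP libraries to means between 99.6 and 150 at day 4, rises of 5.60-fold in p0-1, 7.54-fold in p2, 8.39-fold in pMN and 5.88-fold in p3. From day 4 to day 5 it was 1.36- to 1.48-fold higher, with an adjusted limma p of 0.00558 in p2. In p2 it was then 1.29-fold lower at day 6 (adjusted p = 0.0519). At day 6 its means lay between 121 in p0-1 and 205 in pMN, and no step after day 4 passed the limit of 4-fold.

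Nfib+15.7kb (chr4:82489654-82490500, intron 2 of 8) rose in 2 steps, and the 4 types kept close together. The NMP libraries had 7.27, 2.70 and 8.62 normalized counts, from 16 reads in all. At day 4 the means were 87.7 ± 44.0 in p0-1 (SD, n = 6), 94.1 ± 27.7 in p2 (n = 6), 84.0 ± 22.3 in pMN (n = 6) and 95.2 ± 22.0 in p3 (n = 5), and each rise from NMPs passed the test (11.8- to 13.4-fold). From day 4 to day 5 it rose again, 4.85-fold in p0-1 (adjusted p = 5.12e-06), 4.50-fold in p2, 4.75-fold in pMN and 4.13-fold in p3 (adjusted p = 4.38e-07).

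At day 6 the Nfib+15.7kb values of the types overlapped throughout. The p0-1 samples had 448.5, 528.4, 393.9, 431 and 572.2 counts, the p2 samples ran from 364 over a median of 385 to 549, the pMN samples had 411.5, 572.8, 400.8 and 573.3, and the p3 samples had 542.5, 492.3, 475.8 and 409.8. The rise from NMPs was 66.1-fold in p0-1, 59.6-fold in p2, 68.2-fold in pMN and 66.9-fold in p3. The VST difference of p3 from pMN was -0.01, with a 95% interval from -0.30 to 0.27.

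**Figure D2:**
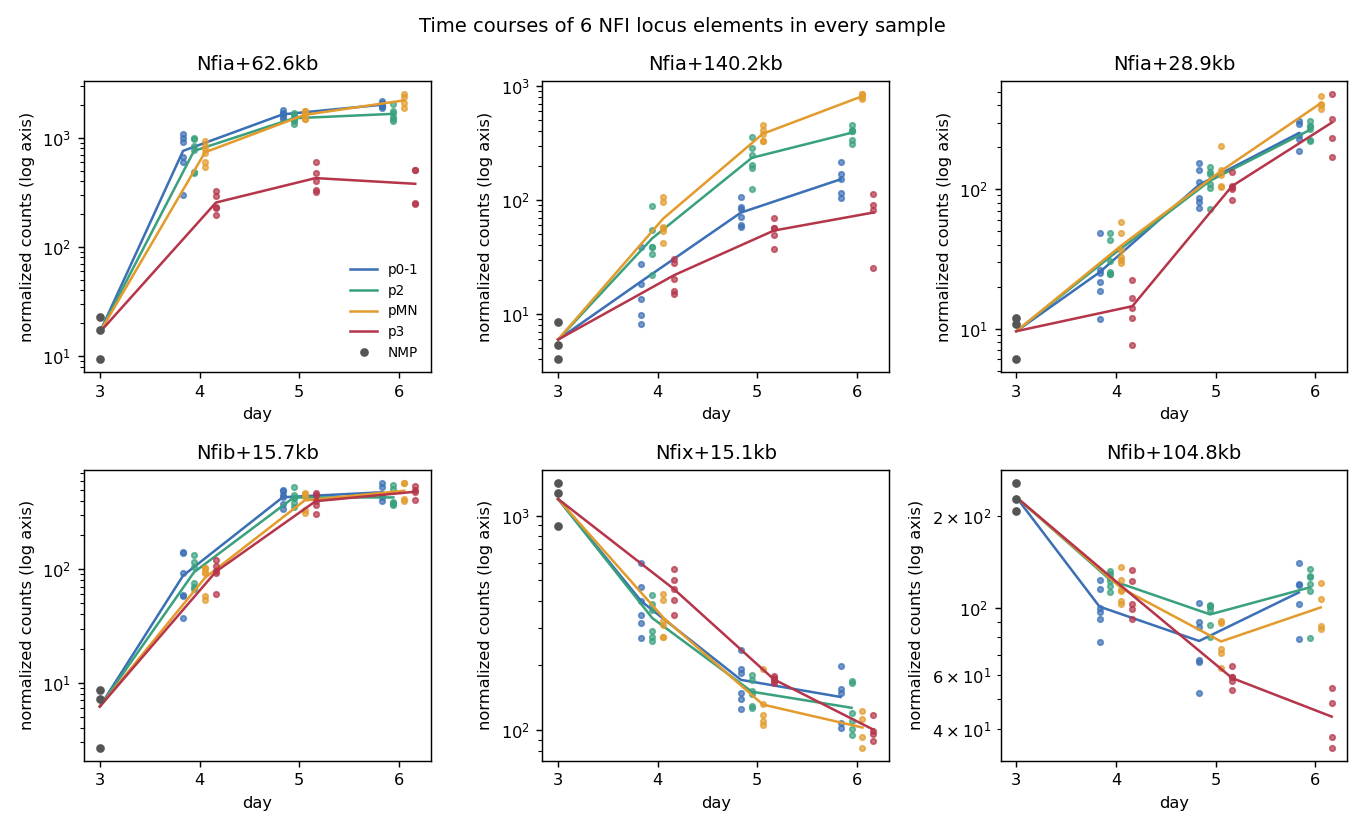
Normalized counts (log axis) against day for 6 NFI locus elements, with a point for each sample and a line through the group means of each type, all starting from the 3 NMP samples. The p3 points lie apart from those of the other types at Nfia+62.6kb from day 5 and at Nfib+104.8kb at day 6, and among them at Nfib+15.7kb and Nfia+28.9kb at day 6.

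Between day 4 and day 5, 3 elements rose in at least 1 type, where 6.45% of all elements tested did, and none fell with limma or voom, where 0.617% did. An unadjusted limma p below 0.05 in either direction was found for 13. Beside Nfib+15.7kb these were a pair of elements in intron 2 of Nfia that became accessible later than Nfia+62.6kb. Nfia+28.9kb (chr4:97805891-97807098) had 9.57 ± 3.08 normalized counts in NMPs (n = 3) and 14.5 to 39.4 at day 4. It rose from day 4 to day 5 in p0-1 (4.12-fold, adjusted p = 3.09e-05) and in p3 (6.86-fold, adjusted p = 3.24e-07), and in p2 and pMN it was 3.43- and 3.36-fold higher, under the limit of 4-fold. The p0-1 samples of day 6 had 243.7, 187.4, 306, 292.4 and 229.5 counts, the p2 samples ran from 220 over a median of 278 to 308, the pMN samples had 465.3, 373.7, 402.8 and 407.5, and the p3 samples had 478.2, 231.9, 316.4 and 169.9. The p3 samples thus spread over the whole range of the other types. This element had only 4.84% to 12.4% of its day 6 mean at day 4 and 32.7% to 43.3% at day 5, and its rise from NMPs to day 6 was 23.9-, 25.2-, 39.1- and 28.4-fold in p0-1, p2, pMN and p3.

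Nfia+140.2kb (chr4:97917360-97918214) was graded over the types as well as over time. Its NMP libraries had 8.49, 4.05 and 5.39 normalized counts, from 15 reads. At day 4 only its rises in p2 (6.76-fold) and pMN (9.99-fold) passed the test, and the same types rose again to day 5, 5.00-fold and 5.48-fold. By day 6 the p0-1 samples had 104.8, 116, 215.5, 152.6 and 169.4 counts, the p2 samples ran from 311 over a median of 406 to 458, the pMN samples had 844.5, 842.2, 764.6 and 802.2, and the p3 samples had 113.8, 81.38, 90.08 and 25.25. No pMN sample overlapped a p2 sample and no p2 sample a p0-1 sample, while the highest p3 sample lay above the lowest p0-1 sample. From NMPs the rise to day 6 was 21.9-fold in p0-1, 55.8-fold in p2, 117-fold in pMN and 11.3-fold in p3.

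The difference of pMN from p0-1 at Nfia+140.2kb was the only one of the 19 tested elements to pass the rule among p0-1, p2 and pMN at day 6, where 2.01% of all elements did in at least 1 pair. It was 5.33-fold (VST difference 2.37, SE 0.182, adjusted p = 3.15e-05). The p2 samples lay between, 2.55-fold above p0-1 (adjusted p = 0.000757) and 2.09-fold below pMN (adjusted p = 0.000272), both under the limit of 4-fold. Nfia+134.7kb, a few kb away, had the same order with 26.3 ± 6.20 counts in p0-1, 91.8 ± 28.5 in p2, 104 ± 13.8 in pMN and 15.9 ± 4.80 in p3. Over the 13 group means its VST correlated with that of Nfia+140.2kb (r = 0.956), a description of points that share libraries.

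From day 5 to day 6 no NFI element passed the rule in any type with limma, and none did with voom on the recovered reads, where limma called 0.611% of all elements. Of the 19, 12 had an unadjusted p below 0.05 in at least 1 type. At an adjusted p below 0.01 alone, 4 elements were higher at day 6 (Nfia+28.9kb, Nfia+62.6kb, Nfia+140.2kb and Nfib-0.3kb, 1.22- to 3.04-fold over 12 comparisons) and 2 were lower (Nfix+15.1kb and Nfix+27.1kb, 1.51- to 1.71-fold). The share of all elements at this limit alone was not counted, so these counts do not set the NFI loci apart. The pMN mean of Nfia+140.2kb went from 380 ± 54.5 (n = 5) to 813 ± 37.9 (n = 4), 2.14-fold (adjusted p = 9.06e-05).

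Over the whole course from NMPs to day 6, 8 of the 19 tested elements passed the rule in at least 1 type, against 39.8% of all elements tested. They were 5 that rose (32.2% of all rose) and 3 that fell (7.64% of all fell). The 5 that rose, Nfia+28.9kb, Nfia+62.6kb, Nfia+140.2kb, Nfia+273.5kb and Nfib+15.7kb, did so in all 4 types.

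The elements that fell were at Nfix and Nfib. Nfix+15.1kb (chr8:84783711-84786751, intron 1 of 8) had 1419, 1269 and 894.9 normalized counts in NMPs. Its day 4 means lay between 332 ± 68.7 in p2 (n = 6) and 453 ± 84.4 in p3 (n = 5), and its day 5 means between 131 and 172. At day 6 the p0-1 samples had 199, 107.1, 154.7, 149.1 and 101.7, the p2 samples ran from 94.2 over a median of 115 to 170, the pMN samples had 122.8, 82.63, 112.2 and 92.25, and the p3 samples had 117.1, 88.5, 95.86 and 99.04. Every NP sample of days 4 to 6 lay below every NMP sample, and the types overlapped at day 6. It fell 8.34-fold in p0-1 (adjusted p = 1.81e-07), 9.36-fold in p2, 11.6-fold in pMN and 11.8-fold in p3 (adjusted p = 4.63e-09) from NMPs to day 6.

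Nfix+27.1kb (chr8:84770290-84776202, annotated to a further Nfix promoter, and at 5913 bp the longest of the 49) followed the same course at a shallower slope. It fell from 755 ± 146 counts in NMPs (n = 3) to 158 ± 23.6 in pMN (n = 4) and to 192.9, 176, 173.2 and 151.5 in the p3 samples, 4.76- and 4.33-fold. In p0-1 and p2 it was 3.43- and 3.92-fold lower, under the limit of 4-fold, with adjusted p of 4.06e-05 and 9.07e-07. The group means of these 2 Nfix elements ran together (r = 0.977 over 13 groups that share libraries).

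Nfib+104.8kb (chr4:82399870-82402140, intron 2 of 8) passed the rule for a fall from NMPs to day 6 in p3 and in no other type. The NMP libraries had 227.9, 207.7 and 257.4 normalized counts. At day 4 the types overlapped, with means of 101 ± 16.5 in p0-1, 123 ± 7.24 in p2, 116 ± 12.2 in pMN and 110 ± 17.1 in p3. By day 6 those of p0-1 had 78.88, 103.1, 140.3, 118.8 and 120.1, the p2 samples ran from 79.2 over a median of 123 to 134, the pMN samples had 121, 87.32, 107.2 and 85.24, and the p3 samples had 34.63, 37.64, 48.51 and 54.38. All 4 p3 samples thus lay below all 15 samples of the other types. The fall from NMPs was 5.18-fold in p3 (adjusted p = 1.24e-06), and in the other types the element was 1.97- to 2.29-fold lower than in NMPs.

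The elements nearest the starts of Nfia, Nfib and Nfix passed the rule in no time step with limma or voom, although each had an unadjusted limma p below 0.05 in at least 1. Nfia+0.6kb had 382 ± 38.0 normalized counts in NMPs (n = 3) and means of 361 to 439 at day 6, and Nfix+0.7kb had 537 ± 114 in NMPs and 355 to 525 at day 6. The element nearest the Nfic start, Nfic+2.2kb, lay below the filter and is given with such elements further on. Nfia-4.9kb had means between 1317 in NMPs and 1692 in pMN at day 6. Nfib-0.3kb, the annotated Nfib promoter, went from 1156 ± 127 in NMPs (n = 3) to 502 ± 73.0 in pMN at day 4 (n = 6) and back to 999 ± 98.5 at day 6 (n = 4), with no step passing the limit of 4-fold. Nfic-4.2kb, the only Nfic element to pass the filter, was 1.14- to 1.31-fold lower at day 6 than in NMPs. Nfia-26.0kb was 2.75- to 3.40-fold lower, with adjusted p between 1.17e-08 and 1.41e-07 and under the limit of 4-fold. Nfix-10.8kb, the tested Nfix element with the largest rise, had a mean of 388 in NMPs and 539 to 644 at day 6. That was 1.39- to 1.66-fold higher, with adjusted limma p between 0.00204 and 0.0115 and under the limit of 4-fold.

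The comparison of p3 with the other NP types asked whether the NFI loci opened in the same way in the most ventral progenitors. At day 4 none of the 19 elements passed the rule with limma in any of the 3 comparisons (3.00% of all elements did), and none did with voom, while 9 had an unadjusted limma p below 0.05. At day 5 only Nfia+140.2kb did, lower in p3 than in p2 (4.29-fold, adjusted p = 7.75e-06) and pMN (6.94-fold, adjusted p = 1.59e-08), where 6.47% of all elements were lower. At day 6 the lower elements were Nfia+62.6kb and Nfia+140.2kb, where 8.11% of all elements were lower. With limma and with voom none was higher, where 3.44% of all elements were, and 8 of the 19 had an unadjusted limma p below 0.05 in either direction. The filter took the mean over all samples, so an element open mainly in p3 could fall below it. An element low in p3 could pass it through the other types. Elements under the filter are given further on.

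At Nfia+62.6kb the p3 mean of day 6 was 19.4% of the mean of the other types. It was 378 ± 147 in p3 (n = 4) against 2001 ± 124 in p0-1 (n = 5), 1651 ± 224 in p2 (n = 6) and 2195 ± 292 in pMN (n = 4), so that p3 was 5.28-fold (adjusted p = 6.45e-06), 4.36-fold (adjusted p = 4.91e-06) and 5.80-fold lower (adjusted p = 3.12e-05). The difference was already present at day 4, at 2.88- to 2.96-fold with adjusted p between 2.00e-06 and 0.00201, and at day 5, at 3.52- to 3.83-fold, both under the limit of 4-fold. At Nfia+140.2kb the p3 mean of day 6 was 17.2% of that of the others, 4.95-fold below p2 (adjusted p = 4.45e-05) and 10.4-fold below pMN (adjusted p = 3.71e-05). Its 1.94-fold difference from p0-1 did not pass (adjusted p = 0.0521).

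The gap varied among elements of the same introns. The p3 mean of Nfia+28.9kb at day 6 was 96.6% of that of the other types and that of Nfib+15.7kb 103%, and neither passed in any comparison (1.01- to 1.38-fold). In the Nfia intron that holds Nfia+62.6kb and Nfia+140.2kb, Nfia+134.7kb and Nfia+103.0kb, both below the filter, were at 21.5% and 25.1%. Nfib+104.8kb was 2.53-, 2.63- and 2.26-fold lower in p3 than in p0-1, p2 and pMN, with adjusted p of 0.00061, 9.91e-05 and 0.00112 and under the limit of 4-fold. Among tested elements, p3 of day 6 exceeded the mean of the others most at Nfia+226.7kb, Nfia+0.6kb and Nfic-4.2kb. The excess was 0.425, 0.194 and 0.144 on the VST scale, and none passed the rule. Nfia+226.7kb had a mean of 322 in p3 at day 6 against 211 to 284 in the others. At day 4 these means were 409 against 233 to 263.

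Elements of 7 marker genes were examined in the same libraries. The element nearest the start of Foxa2, a forkhead factor of the floor plate, had a mean of 1662 counts in p3 at day 6 against 261 to 307 in the other types and 1494 in NMPs, and that of Pax6, which is low in p3, had 1696 against 3208 to 3889. The Olig2 element, of the factor that marks pMN, had 2325 in pMN, 1005 in p3, 921 in p2 and 408 in p0-1. That of Dbx1, which marks p0 progenitors, had 2549 in p0-1 against 631 to 1055, and that of T, an NMP and mesoderm gene, had 1175 in NMPs and 99.0 to 149 at day 6. The Irx3 element differed less between types, from 2086 in p3 to 3014 in p0-1, and that of Nkx6-1 had 1431 in p0-1 and 2431 to 2586 in the others. Elements named Nkx2-2, after the factor by which p3 was sorted, were not analysed here. Fewer cells with an open site and a site less open in every cell cannot be told apart in these bulk libraries.

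The change from day 4 to day 6 differed between p3 and the mean of the other types at 2 of the 19 elements, where 10.4% of all elements passed (adjusted p below 0.01 and a VST difference above 1) and 6.30% did with a lower change in p3. Nfia+140.2kb changed by 2.91 in the others and by 1.31 in p3, a difference of -1.60 (SE 0.332, adjusted p = 0.000303). Nfib+104.8kb changed by -0.05 in the others and by -1.13 in p3, a difference of -1.08 (SE 0.168, adjusted p = 4.41e-06). For Nfia+62.6kb, the changes of 1.41 and 0.49 differed by -0.92 (SE 0.283, adjusted p = 0.0138), which did not pass. The call at Nfia+140.2kb was lost without replicate 3 (-1.17, adjusted p = 0.0415) and with voom (adjusted p = 0.0278), and that at Nfib+104.8kb with samples centred on their median (-0.997), without replicate 1 (-0.96) and without replicate 2 (-0.96), each under the limit of 1 in size.

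**Figure D3:**
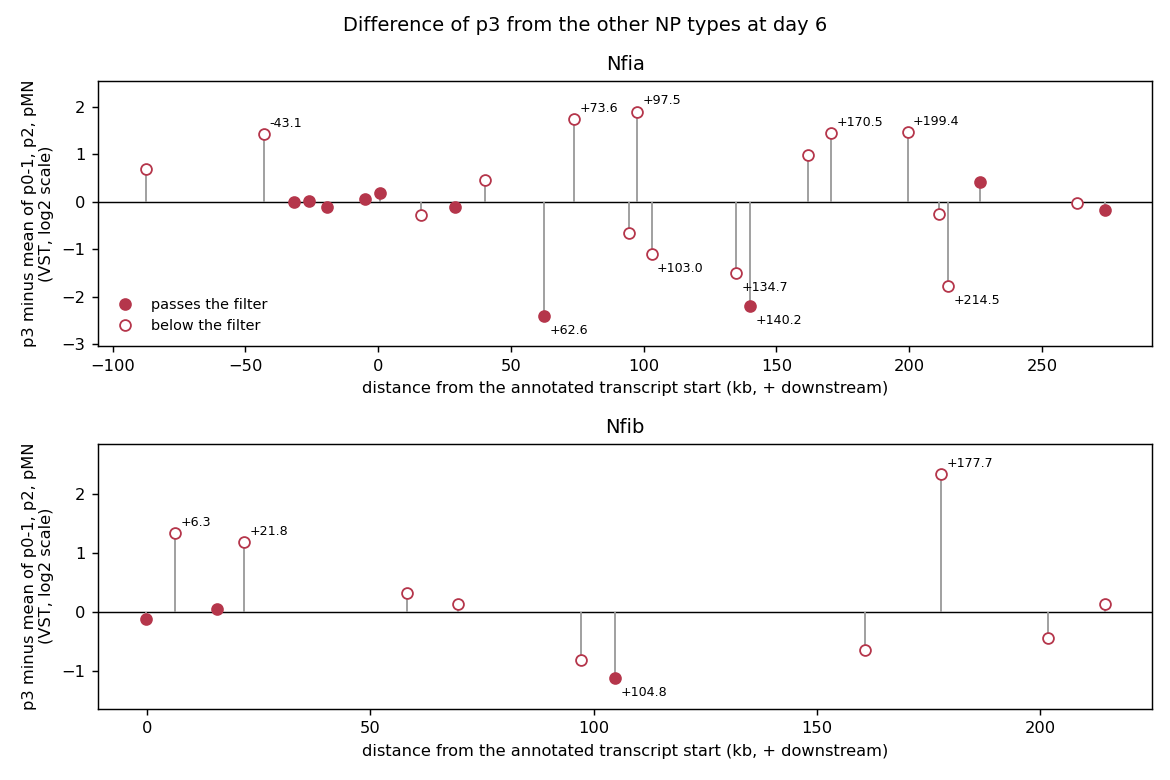
Difference of p3 from the mean of p0-1, p2 and pMN at day 6 (VST, a log2 scale) against the distance of each element from the annotated transcript start (kb), for the Nfia and Nfib loci, with filled points for elements that passed the filter. The 2 lowest points are Nfia+62.6kb and Nfia+140.2kb, and the positive ones above 1 are all open symbols, the highest being Nfib+177.7kb.

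The 30 elements under the filter held all of those called higher in p3 at day 6. When all 111638 elements were tested, 13 of the 49 passed between p3 and another type at day 6, against 21.6% of all elements in either direction. That share is not split by direction here. The 7 higher ones were Nfia-43.1kb, Nfia+73.6kb, Nfia+97.5kb, Nfia+170.5kb, Nfia+199.4kb, Nfib+6.3kb and Nfib+177.7kb, and none of these reached a mean of 100 over all samples. The 6 lower ones were Nfia+62.6kb, Nfia+103.0kb, Nfia+134.7kb, Nfia+140.2kb, Nfia+214.5kb and Nfib+97.1kb.

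Nfib+177.7kb (chr4:82327481-82328655, intron 7 of 8) had 1.21, 5.40 and 2.15 normalized counts in NMPs, from 7 reads in all. At day 4 its mean was 67.5 ± 33.2 in p3 (n = 5) against 9.25 to 22.4 in the other types, and at day 5 127 ± 20.3 (n = 5) against at most 32.1. At day 6 the p3 samples had 214.4, 124.1, 159.4 and 108.8, the p0-1 samples ran from 2.97 to 20.0, the p2 samples from 15.7 to 52.0 and the pMN samples from 22.5 to 38.5. No p3 sample of day 6 overlapped another type. It was 14.2-fold higher in p3 than in p0-1 (adjusted p = 2.14e-06), 5.11-fold than in p2 and 5.00-fold than in pMN. Nfia+97.5kb, 602 bp in intron 2, reached 112 ± 42.3 in p3 at day 6 (n = 4) against 15.1 to 27.3 in the others, and Nfia+214.5kb in intron 3 went the other way, with 34.9 ± 9.41 in p3 against 112 to 174.

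Over all 49 elements, p3 of day 6 lay above every other NP sample of that day at 7 (14.3%, against 11.4% of all elements) and below every one at 4 (8.16%, against 9.31%). The NMPs lay below every NP sample at 4 (8.16%, against 13.8%) and above every one at 9 (18.4%, against 21.5%). These shares were near those of the genome.

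The elements under the filter also extended the time courses. From NMPs to day 6, 28 of the 49 passed when all elements were tested (21 higher and 7 lower), against 59.6% of all in either direction. That share is not split by direction here, so the balance of rises and falls has no reference. At Nfib, Nfib+214.3kb in the last exon followed Nfib+15.7kb (r = 0.985 over 13 groups), with 4.04 ± 0.809 counts in NMPs and 150 to 167 at day 6, a rise of 29.9- to 33.3-fold. All 4 Nfic elements had their highest mean in NMPs. Nfic+2.2kb went from 372 ± 68.1 in NMPs (n = 3) to 38.8 to 61.7 at day 6 (5.94- to 9.36-fold lower), and Nfic-25.7kb from 235 to 20.6 to 34.9 (6.57- to 10.9-fold lower). Nfix+40.1kb went from 253 to 29.5 to 43.4, and Nfib+58.3kb from 127 to 10.6 to 23.2.

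The counts of members were read against the same count over all elements under 2 other rules as well. With the fold limit lowered to 2, 11 of the 19 passed between NMPs and day 4 (53.5% of all elements tested), 5 between day 4 and day 5 (24.4%), 2 between day 5 and day 6 (8.17%) and 10 between NMPs and day 6 (58.6%). Between p3 and another type 3, 2 and 3 passed at days 4, 5 and 6 (13.4%, 23.7% and 27.6% of all), and among the other types at day 6 1 passed (10.3%). With no filter, 16 of the 49 passed between NMPs and day 4 (40.1% of all 111638), 8 between day 4 and day 5 (11.6%) and none between day 5 and day 6 in limma (1.13%), where 32 had an unadjusted p below 0.05 in at least 1 type. Between p3 and another type 2 and 8 passed at days 4 and 5 (4.37% and 15.6%), among the other types at day 6 1 passed (5.00%), and in the change from day 4 to day 6 p3 differed at 8 (14.6%).

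The SAG concentration within a type was compared at 12 combinations of type and day, with 2 or 3 samples a concentration. No NFI element passed with limma or with voom, and neither did any of the 31744 elements (0%). No NFI element passed with a fold limit of 2 (0.00315% of all, 1 element) or with no filter (0.000896%, 1 element; 21 of the 49 had an unadjusted p below 0.05), while 6 of the 19 had an unadjusted limma p below 0.05 in at least 1 comparison. Nfia+62.6kb in p3 at day 6 had 505 ± 6.39 counts at 100 nM and 251 ± 5.13 at 500 nM (n = 2 each), 2.01-fold apart, with an unadjusted limma p of 0.000977 and an adjusted p of 1.00. In pMN at the same concentrations it had 2277 ± 309 and 2113 ± 365. At both concentrations shared by pMN and p3, all p3 samples lay below all pMN samples at Nfia+62.6kb and Nfia+140.2kb.

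**Figure D4:**
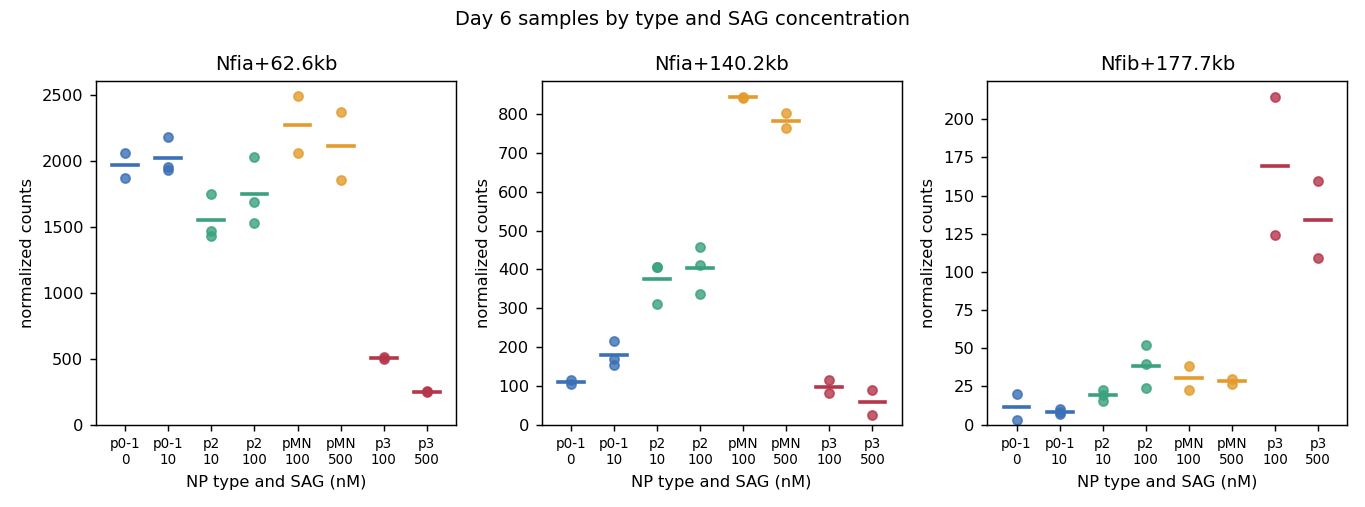
Normalized counts (linear axis from 0) of 3 elements in each day 6 sample, by NP type and SAG concentration (nM), with a bar at each mean. At 100 and 500 nM the p3 points lie far below the pMN points for Nfia+62.6kb and Nfia+140.2kb and above them for Nfib+177.7kb.

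Elements of genes that act with NFI factors were counted for comparison. A list of gliogenic partners and targets (Sox9, Fabp7, Slc1a3, Aldh1l1, Gfap, Apcdd1, Mmd2 and Zcchc24) had 63 elements, of which 18 were tested. From NMPs to day 6, 6, 6, 6 and 8 of them rose in p0-1, p2, pMN and p3, and 2, 3, 3 and 2 fell. Of all elements tested 27.0%, 28.0%, 29.0% and 25.7% rose in these comparisons, and 4.62%, 5.39%, 5.64% and 5.78% fell. The rises were at 2 of the 8 genes, with 5 elements of Slc1a3 in each type and 1, 1, 1 and 3 of Aldh1l1. Of the other genes, Mmd2 had 0 elements tested, Sox9, Fabp7, Apcdd1 and Zcchc24 had 1 each, and Gfap had 2. The Aldh1l1 element at the gene start fell in each type, from 1053 counts in NMPs to 136, 155, 171 and 210. Over the tested elements of the list the median VST difference was between 0.30 and 0.65, beside 0.00 to 0.09 over all elements tested. Slc1a3, which encodes the astroglial glutamate transporter GLAST, had an element 66.2 kb downstream of its start that went from 6.87 counts in NMPs to 935 in p0-1, 482 in p2, 370 in pMN and 158 in p3. The Gfap element 3.83 kb downstream, at the gene of the astrocyte filament protein, fell from 671 to 126 in p2, pMN and p3.

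A list of other temporal factors (Onecut1, Onecut2, Pou2f2, Zfhx3, Zfhx4, Neurod2, Neurod6 and Tcf4) had 96 elements, of which 39 were tested. From NMPs to day 6, 10, 12, 11 and 9 rose in p0-1, p2, pMN and p3, and 1, 2, 1 and 4 fell, beside the same shares of all elements, with medians of 0.05 to 0.28. The rises were at Tcf4 (7, 8, 8 and 8 elements), which encodes an E protein, and Zfhx3 (3, 4, 3 and 1). Zfhx3, a homeobox gene of intermediate-born neurons, had an element upstream of its start that rose from 101 counts to between 657 in p3 and 1029 in p0-1. Another, 8.45 kb downstream, fell from 1266 counts to 289 in p0-1, 257 in p2 and 139 in p3. From day 5 to day 6 no element of either list passed with limma.

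The genes whose tested elements had the group means most like those of each NFI gene were ranked by Pearson's r over the 13 groups, which share libraries and a common course of differentiation. For Nfia they were Tenm4 (0.985), Jarid2 (0.984) and 1700113H08Rik (0.984) among 1142 genes. For Nfib they were Ltbp1 (0.980), Id4 (0.978) and Hoxc4 (0.976). For Nfix they were Barhl2 (0.990), Pde4a (0.970) and Ltbp4 (0.961), and for Nfic, from 1 element, Trim27 (0.913), Ier2 (0.906) and Mir704 (0.899).

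The depth behind these values was 9298160 to 29985325 reads in elements per library (median 20254011). The elements Nfia+28.9kb, Nfia+62.6kb, Nfia+140.2kb, Nfia+273.5kb, Nfib+15.7kb, Nfib+177.7kb and Nfib+214.3kb each had only 7 to 43 reads over the 3 NMP libraries together, so that their folds against NMPs rest on few reads.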

How the data were processed

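The authors made the files with nf-core/atacseq, MACS peak calls and HOMER annotation on mm10, and deposited DESeq2 variance-stabilized values (VST, a log2 scale) for each element and library. Tool versions are left out here. Inverting the VST gave whole reads for 100% of the values below 1000 reads checked (largest distance from a whole number 3.56e-11), and from them normalized counts. Groups pooled the SAG concentrations of a type and day, as labelled. Each n counts libraries, and the 2 SAG concentrations of a replicate number entered as separate samples. The n = 4 of p3 or pMN at day 6 thus comes from 2 replicate numbers. The main fits had no replicate block, so their SE, intervals and p take the libraries as independent. Each comparison was fitted with limma 3.58.1 (lmFit and eBayes with a trend, R 4.3.3) on the VST of its own samples, two-sided, with Benjamini-Hochberg adjustment over all 31744 elements whose mean normalized count exceeded 100. The code was tested on simulated data. A call needed an adjusted p below 0.01 and a log2 fold of mean normalized counts (pseudocount 1) above 2 in size. The study used the same thresholds on the adjusted p and log2 fold of DESeq2, so the calls here are not its own. Intervals are the difference ± 1.96 SE, and with so few samples they are narrower than 95% intervals from the limma test. Errors are SD unless named SE.

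By rule the text names, for each gene, the element nearest the start and, among those passing the filter, up to 3 with the largest rise and 2 with the largest fall from NMPs to day 6. It then names the 3 with the largest excess and the 3 with the largest deficit in p3 at day 6. Of the counts of called elements, those of 5 or fewer in the main fits have every element named. Elements under the filter and single elements of the other gene lists were chosen after their values were seen. Alternatives were a fold limit of 2, no filter, a filter on the samples compared, median centring, voom, a replicate block, averaging over SAG and leaving out each replicate number. The members, gene lists, motifs and tests were chosen with earlier results of these data known. In the labels of 15 libraries, the replicate numbers of title and description differ, and the title was used. Same-numbered samples deviated together in every pair between day 5 and day 6 (10 of 10, median r = 0.672) and among the types of day 5 (18 of 18) and of day 6 (13 of 13), but not in every pair elsewhere (8 of 12 from NMPs to day 4). The 6 windows printed hold 1800 bases.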

Additional observations from a re-analysis of the deposited data

Results flagged for a closer look

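Among the 16 named elements, 192 groups of 4 to 6 samples were examined for a sample far from the rest, and 6 had one by Dixon's 95% limit, which chance exceeds in about 1 in 20 groups. The highest p0-1 sample of day 4 had 279.3 normalized counts at Nfia-31.6kb (nearest sample 179) and another 1371 at Nfic-4.2kb (nearest 1056). The highest p0-1 sample of day 5 had 288.9 at Nfia+226.7kb (nearest 218.5). The lowest p2 sample of day 5 had 515.1 at Nfib-0.3kb (nearest 626.3), and the lowest p2 sample of day 6 had 79.24 at Nfib+104.8kb (nearest 113.6), which was still above every p3 sample there. The lowest pMN sample of day 4 had 55.06 at Nfic+2.2kb (nearest 72.74). The p2 group of day 6 at Nfib+104.8kb also enters the difference in change given next.

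At 2 elements the change from day 4 to day 6 differed between p3 and the mean of the other NP types in a test of that difference. It was -1.60 on the VST scale at Nfia+140.2kb (adjusted p = 0.000303), where the other types gained more, and -1.08 at Nfib+104.8kb (adjusted p = 4.41e-06), where p3 lost accessibility. What lies behind either difference was not tested.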

How the results depend on the processing

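Of the counts of called elements, 79 of 98 stayed within 1.5 times their main value. With a fold limit of 2 in place of 4, 11 elements passed from NMPs to day 4 (6 higher and 5 lower), 5 from day 4 to day 5, 2 from day 5 to day 6, and 3 and 2 between p3 and other types at days 4 and 5. With no filter the counts were 16, 8 and 28 for NMPs to day 4, day 4 to day 5 and NMPs to day 6, 2, 8 and 13 for p3 at days 4, 5 and 6, and 8 for the difference in change, because 49 elements were tested in place of 19. A filter on the samples compared gave 13 from NMPs to day 6. The difference in change passed at 1 element in place of 2 with median centring (Nfib+104.8kb lost), with voom (Nfia+140.2kb lost), and without any 1 replicate number (range 1 to 1). Without replicate 3, Nfia+62.6kb also passed between p3 and other types at day 5 (count range 1 to 2). The replicate block and averaging over SAG moved no count past 1.5 times. In the fit with the block, Nfia+140.2kb had a difference in change of -1.46 and Nfib+104.8kb of -1.10, both called. Of 478 single changes from NMPs to day 6, 471 kept direction and call. Reversals, all at uncalled elements, were Nfia+0.6kb in p2 without replicate 2 (leave-one-out range -0.19 to 0.011), Nfix+0.7kb in p0-1 without replicate 3 (-0.33 to 0.15), and Nfia+226.7kb without replicate 3 in p0-1 (-0.34 to 0.50), p2 (-0.28 to 0.35) and pMN (-0.027 to 0.75). Without replicate 2, Nfix+27.1kb also passed in p0-1 and p2. A fold limit does not apply to the difference in change, nor averaging over SAG to the SAG comparison. Except where named, the cause was not tested.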

Other observations

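When elements under the filter were included, 8 of the 49 differed in their day 4 to day 6 change between p3 and the other types, against 14.6% of all elements. The change in p3 exceeded that of the others by 1.78 on the VST scale at Nfia+97.5kb, by 1.39 at Nfia+199.4kb and by 1.13 at Nfib+6.3kb. It was smaller at Nfia+214.5kb (-1.77), Nfia+134.7kb (-1.35), Nfia+103.0kb (-1.20), Nfia+140.2kb and Nfib+104.8kb. Elements with either sign lay within the Nfia gene, mostly in intron 2.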
